A study of Homo sapiens with 6 samples.

Results

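A set of 10 genes that report on the output of the ERK pathway and restrain it were examined by RNA-seq in A2780, a long-established line of human ovarian cancer cells. The genes were chosen by name, with earlier results of these data known. They are the phosphatases DUSP4, DUSP5 and DUSP6, and the Sprouty proteins SPRY2 and SPRY4 with their relative SPRED1. The others are the transcription factors EGR1, ETV4 and ETV5, and PHLDA1. All 10 of the 10 names were found among 16571 gene symbols in the table, and all 10 passed the filter on low counts, as did 10695 genes in all. The control cells carried pGIPZ-NC, a lentiviral hairpin vector without a stated target, and the knockdown cells carried shUSP39, a hairpin against the spliceosome protein USP39. Both groups were infected with lentivirus, and per the study's methods stable lines were selected with puromycin. There were 3 libraries in each group, described by the submitters as biological replicates, and which of the study's hairpins the shUSP39 cells carried is not given in the sources used here.

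ERK is the last kinase of a relay that runs from receptor tyrosine kinases through RAS, RAF and MEK to the nucleus, where it switches on immediate-early and ETS-family transcription factors. Many of the genes it switches on act back on the relay. DUSP phosphatases remove the activating phosphates from ERK and related kinases, while Sprouty and SPRED proteins act further upstream at the level of the receptors and RAS. The mRNA level of these genes is widely used as a readout of ERK activity in cancer cells. The activity of ERK itself was not measured here.

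The total depth lay between 28294819 and 32939264 counts per library, and shUSP39 replicates 2 and 3 held counts for 15446 and 14890 genes, against 12662 to 12819 in the other 4 libraries. USP39 itself was not analysed here, so there was no check of the labels by the gene that was targeted. The 7 measured markers of serous ovarian carcinoma and epithelium summed to between 21.9 and 25.3 CPM (read counts relative to the library total) in pGIPZ-NC and between 32.8 and 39.7 CPM in shUSP39, most of it from KRT18. Among them PAX8, EPCAM and CDH1 had at most 10 counts in any library, KRT8 had 26 to 37 counts in pGIPZ-NC and at most 3 in shUSP39, and MUC16 had at most 5 in pGIPZ-NC and 6, 150 and 71 in shUSP39 replicates 1, 2 and 3. The 7 fibroblast markers summed to between 2533 and 2651 CPM in pGIPZ-NC and between 1254 and 1328 CPM in shUSP39, nearly all of it from COL1A2 and COL3A1. Of the others, DCN and LUM were lower in every shUSP39 library, THY1 was higher (175 to 201 against 279 to 320 counts), COL1A1 had 198 to 245 counts in pGIPZ-NC and 187 to 212 in shUSP39, and PDGFRA had at most 6 in any library. The 6 leukocyte markers summed to between 9.32 and 11.98 CPM in pGIPZ-NC and between 11.5 and 12.3 CPM in shUSP39, with PTPRC, CD14, CD3E and CD79A at 10 counts or fewer. The 4 endothelial markers reached at most 0.434 CPM in any pGIPZ-NC library and 2.05 CPM in any of shUSP39, with PECAM1 and KDR at 10 counts or fewer. The part of these differences in the results below was not tested. In bulk RNA a change in the number of cells that express a gene cannot be told apart from a change in the RNA per cell.

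To ask how the output of the pathway differed between shUSP39 and pGIPZ-NC cells, the 2 groups were compared by edgeR's quasi-likelihood test over all genes. The 3 phosphatases and PHLDA1 were higher in shUSP39 by 1.28-fold to 2.75-fold, ETV5 was marginally higher, and EGR1 was lower. The Sprouty genes, SPRED1 and ETV4 did not pass the test. At a Benjamini-Hochberg adjusted p under 0.05, 5 of the 10 genes were higher and 1 lower, where 16.1% of all genes tested were higher and 17.5% were lower. With a change beyond 2-fold required as well, only DUSP4 of the 10 was called, against 6.81% of all genes in either direction and 4.53% in the higher direction. The median log2 fold change was 0.24 over the 10 genes and 0.01 over all genes tested. In 6 of the 10 genes every shUSP39 library lay above every pGIPZ-NC library, as in 21.7% of all genes, and in 1 every shUSP39 library lay below, as in 22.5% of all genes. When only shUSP39 replicate 1 was kept of the shUSP39 libraries, the same test passed 4 of the 10 genes as higher and 1 as lower. In that fit the spread came from the pGIPZ-NC libraries alone, and the lone shUSP39 library was assumed to vary like them.

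**Figure D1:**
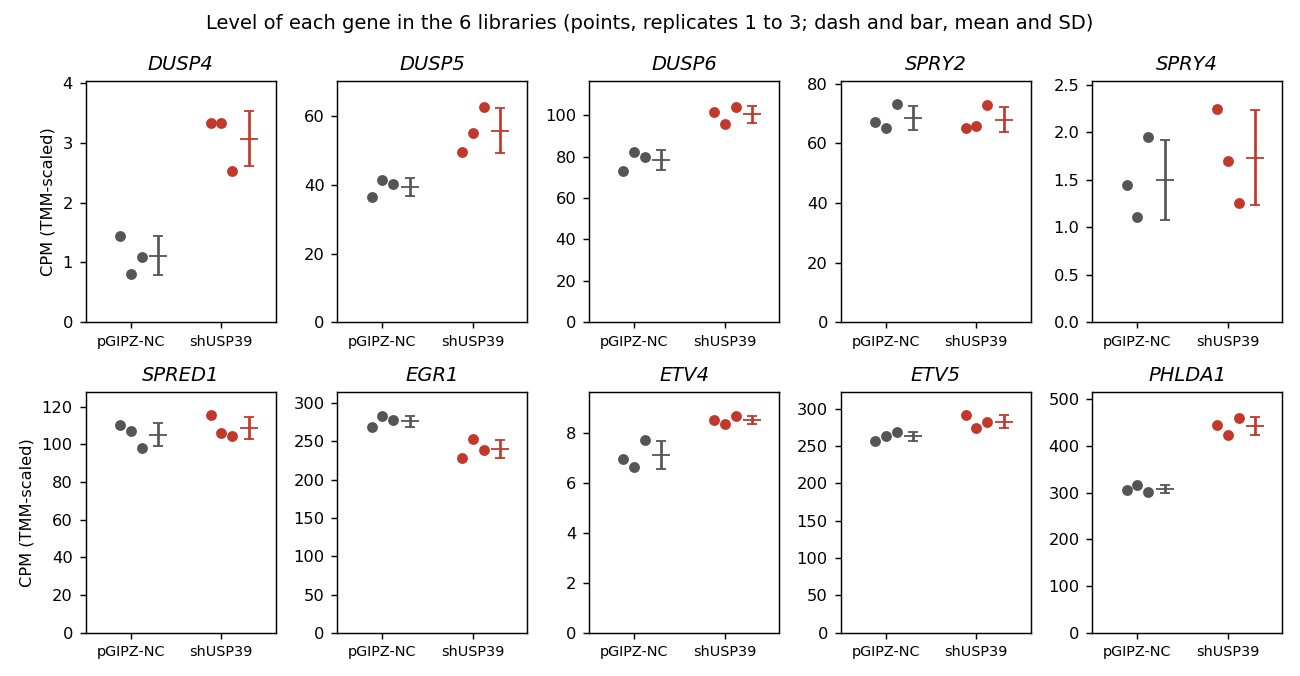
Level of each of the 10 genes in the 6 libraries, on a linear axis from 0 in CPM scaled with TMM factors. Points are libraries (replicates 1 to 3 from left to right), and the dash with its bar is the mean and SD of 3 libraries. The groups do not overlap in DUSP4, DUSP5, DUSP6, EGR1, ETV4, ETV5 and PHLDA1, and they overlap in SPRY2, SPRY4 and SPRED1.

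**Figure D2:**
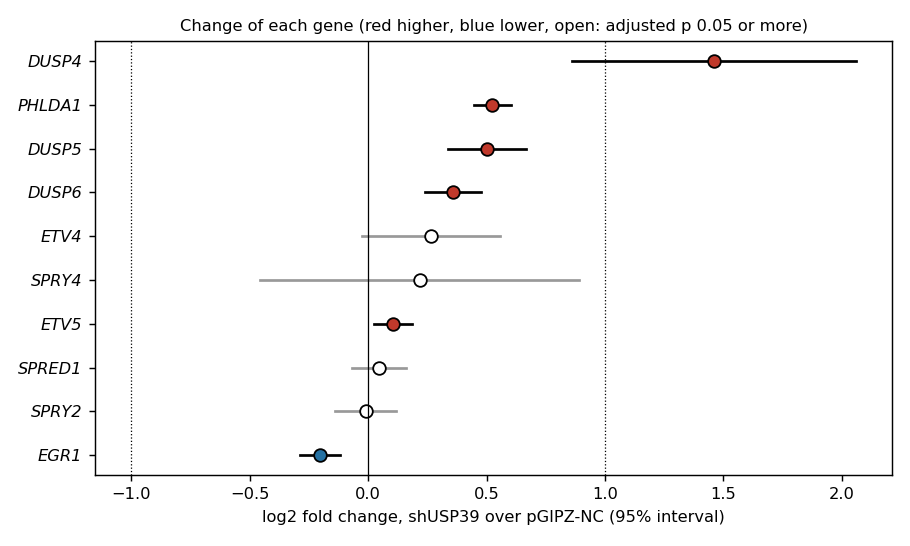
Log2 fold change of each gene, shUSP39 over pGIPZ-NC, with its 95% interval from edgeR's quasi-likelihood fit of 3 against 3 libraries. Red points are higher and blue points lower at an adjusted p under 0.05, open points did not pass, and dotted lines mark a 2-fold change. DUSP4 has the largest change of the 10 at 1.46, and EGR1 lies on the other side of 0 at -0.20.

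The phosphatases were examined first. DUSP4, an inducible nuclear phosphatase that acts on ERK and on other MAP kinases, lies on chromosome 8 (29190581 to 29208201, minus strand, GRCh37) and has 4 exons in its longest coding transcript. Its raw counts, in the order of replicates 1, 2 and 3, were 46, 26 and 31 in the pGIPZ-NC libraries and 107, 102 and 75 in those of shUSP39. The groups thus did not overlap, at low counts. In CPM scaled with TMM factors, the unit of the levels from here on, the mean of DUSP4 was 1.11 ± 0.321 for pGIPZ-NC and 3.07 ± 0.463 for shUSP39 (SD, n = 3 each). On the log2 scale it rose by 1.46 (SE 0.29, 95% interval 0.86 to 2.06), and edgeR's quasi-likelihood test gave 0.000241 as the adjusted p. This change was larger in size than that of 95.2% of all genes tested. Because 2 overlapping RefSeq transcripts of DUSP4 are listed, and how shared reads were counted is not given in the sources used here, the level of DUSP4 may be too low.

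DUSP5, a nuclear phosphatase that is selective for ERK, lies on chromosome 10 (112257665 to 112271291, plus strand, GRCh37). Its level was 36.4, 41.5 and 40.3 CPM in pGIPZ-NC and 49.5, 55.1 and 62.6 CPM in shUSP39, in the order of the replicate numbers. The lowest shUSP39 library, replicate 1, was still above the highest pGIPZ-NC library. The log2 fold change was 0.50 (SE 0.08, 95% interval 0.34 to 0.66), a 1.41-fold rise, and edgeR's quasi-likelihood test gave 1.41e-05 as the adjusted p. It was 0.33 when only shUSP39 replicate 1 was kept (adjusted p 0.0194), with the spread taken from the pGIPZ-NC libraries alone.

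DUSP6, a cytoplasmic phosphatase of ERK and one of the most used readouts of the pathway, lies on chromosome 12 (89741012 to 89746278, minus strand, GRCh37). It was measured at 72.8, 82.2 and 79.8 CPM in pGIPZ-NC and at 101, 96.0 and 104 CPM in shUSP39. The groups did not overlap, and the shUSP39 libraries lay close to each other. Its log2 fold change was 0.36 (SE 0.06, 95% interval 0.24 to 0.48), a 1.28-fold rise, and edgeR's quasi-likelihood test gave 1.50e-05 as the adjusted p. DUSP5 and DUSP6 are each represented by 1 transcript row in the table, so their values are not sums over transcripts.

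PHLDA1, a protein with a pleckstrin homology-like domain, lies on chromosome 12 (76419227 to 76425556, minus strand, GRCh37). Its expression follows ERK activity in many tumour cells. Its level was 305, 317 and 302 CPM in pGIPZ-NC and 446, 423 and 460 CPM in shUSP39. The spread within either group was small beside the distance between the groups. The log2 fold change was 0.52 (SE 0.04, 95% interval 0.45 to 0.60), or 1.44-fold. In edgeR's quasi-likelihood test PHLDA1 had the lowest adjusted p of the 10 genes, 1.61e-11.

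EGR1, a zinc finger transcription factor and a classical immediate-early gene, was the 1 gene of the 10 that passed the test as lower. The gene has 2 exons and lies on chromosome 5 (137801168 to 137804992, plus strand, GRCh37). It was measured at 268, 283 and 277 CPM in pGIPZ-NC and at 229, 253 and 238 CPM in shUSP39. Every shUSP39 library lay below every pGIPZ-NC library. The log2 fold change of EGR1 was -0.20 (SE 0.04, 95% interval -0.29 to -0.12), and edgeR's quasi-likelihood test gave 0.000314 as the adjusted p. The change was larger in size than that of 46.7% of all genes tested, against 66.8% for DUSP6 and 78.5% for PHLDA1.

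EGR1 and PHLDA1 are ERK-responsive genes that moved in opposite directions, so their promoters are shown beside that of DUSP6. RefSeq promoter sequences (GRCh38.p14) were examined for 6 of the 10 genes. None was found for DUSP5, ETV4 and ETV5, and the promoter of DUSP4 was not analysed here. The 250 bases before each start site are printed 5′ to 3′ on the strand of the gene. They lie at chr5:138465229-138465478 (plus strand) for EGR1, chr12:76031777-76032026 (minus strand) for PHLDA1 and chr12:89352502-89352751 (minus strand) for DUSP6. Capitals mark CArG boxes, the binding motif of serum response factor, which links ERK to immediate-early genes.
EGR1: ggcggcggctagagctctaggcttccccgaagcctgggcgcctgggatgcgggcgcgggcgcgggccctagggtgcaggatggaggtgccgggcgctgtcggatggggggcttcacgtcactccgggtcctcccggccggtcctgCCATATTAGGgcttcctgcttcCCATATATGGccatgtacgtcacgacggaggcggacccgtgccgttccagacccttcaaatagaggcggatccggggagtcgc
PHLDA1: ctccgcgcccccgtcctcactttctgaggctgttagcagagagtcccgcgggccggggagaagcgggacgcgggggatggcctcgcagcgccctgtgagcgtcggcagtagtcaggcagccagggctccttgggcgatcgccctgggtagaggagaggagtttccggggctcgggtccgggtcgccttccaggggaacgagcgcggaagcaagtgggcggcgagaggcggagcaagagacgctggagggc
DUSP6: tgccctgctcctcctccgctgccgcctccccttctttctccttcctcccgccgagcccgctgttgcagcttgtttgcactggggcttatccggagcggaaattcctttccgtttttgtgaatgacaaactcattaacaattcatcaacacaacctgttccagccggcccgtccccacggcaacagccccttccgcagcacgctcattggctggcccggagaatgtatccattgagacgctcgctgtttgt
The EGR1 window held 2 CArG boxes, from 105 to 96 and from 83 to 74 bases before the start site. A CArG box was found on either strand in 1.16% of 35116 windows of the same length in the table. The ETS site CCGGAAGT (3.42% of all windows), the AP-1 site TGANTCA (6.57%) and the cyclic AMP response element TGACGTCA (1.65%) were searched on both strands too. Apart from those boxes in EGR1, none of the 4 motifs was found in the 8 windows of the 6 genes, which says only that these letters are not in the windows. GC content was 68.4% in the EGR1 window, 70.4% in that of PHLDA1 and 57.2% in that of DUSP6.

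ETV4 and ETV5, members of the PEA3 group of ETS transcription factors, were compared next. ETV5 (chromosome 3, 185764103 to 185828107, minus strand, GRCh37) was at 257, 264 and 268 CPM in pGIPZ-NC and at 291, 274 and 282 CPM in shUSP39. Its groups did not overlap, but pGIPZ-NC replicate 3 and shUSP39 replicate 2 were only a few CPM apart. The log2 fold change was 0.10 (SE 0.04, 95% interval 0.02 to 0.18), and the adjusted p that edgeR's quasi-likelihood test gave it, 0.0394, was just under the threshold. When 1 library was left out, ETV5 no longer passed in 5 of 6 fits. Its adjusted p was then 0.128, 0.116 and 0.0574 without pGIPZ-NC replicate 1, 2 or 3, and 0.176 and 0.0744 without shUSP39 replicate 1 or 3.

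ETV4 (chromosome 17, 41605212 to 41656988, minus strand, GRCh37) was at 6.96, 6.62 and 7.72 CPM in pGIPZ-NC and at 8.53, 8.36 and 8.65 CPM in shUSP39. The shUSP39 libraries all lay higher, yet the gene did not pass. Its log2 fold change was 0.26 (SE 0.14, 95% interval -0.03 to 0.55) and edgeR's quasi-likelihood test gave 0.163 as the adjusted p. The interval holds both 0 and the log2 fold changes of DUSP5 and PHLDA1.

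The inhibitors that act upstream of ERK did not pass. SPRY2 (chromosome 13, 80910111 to 80915261, minus strand, GRCh37), a Sprouty protein that restrains receptor tyrosine kinase signalling, was at 67.1, 65.3 and 73.1 CPM in pGIPZ-NC and at 65.1, 66.0 and 72.8 CPM in shUSP39. The groups overlapped almost completely. Its log2 fold change was -0.01 (SE 0.06), with a 95% interval of -0.14 to 0.12 that lies below the values of DUSP5, DUSP6 and PHLDA1. The sign of SPRY2 was positive under upper-quartile scaling (0.032) and with library size only (0.013).

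SPRED1 (chromosome 15, 38545037 to 38649450, plus strand, GRCh37) binds neurofibromin and brings it to the membrane, where it switches RAS off. Its level was 110, 107 and 98.2 CPM in pGIPZ-NC and 115, 106 and 104 CPM in shUSP39, and the groups overlapped. The log2 fold change was 0.05 (SE 0.06, 95% interval -0.07 to 0.16), and edgeR's quasi-likelihood test gave 0.577 as the adjusted p.

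SPRY4 (chromosome 5, 141689992 to 141706020, minus strand, GRCh37), another Sprouty gene, had 46, 36 and 55 counts in pGIPZ-NC and 72, 52 and 37 counts in shUSP39. Its groups overlapped, and its 95% interval of -0.46 to 0.89 around a log2 fold change of 0.22 was the widest of the 10 genes. Changes of the size seen in DUSP5, DUSP6 and PHLDA1 were not detectable in SPRY4 at this depth.

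Levels of different genes were compared per length, as RPKM (CPM divided by the length in kilobases of the longest coding transcript). In pGIPZ-NC the order was EGR1 (88.0 ± 2.32 RPKM), ETV5 (64.4 ± 1.40), PHLDA1 (52.1 ± 1.41), SPRY2 (25.3 ± 1.501), DUSP6 (21.6 ± 1.34), DUSP5 (15.9 ± 1.07), SPRED1 (14.5 ± 0.853), ETV4 (3.04 ± 0.241), SPRY4 (0.304 ± 0.0856) and DUSP4 (0.2005 ± 0.0579), each with SD and n = 3. Of neighbours in that order, the ranges of mean ± SD overlapped for DUSP5 and SPRED1, and for SPRY4 and DUSP4. In shUSP39 EGR1 was at 76.5 ± 3.86 RPKM and PHLDA1 at 74.9 ± 3.10 RPKM, within their spread, with ETV5 next at 69.2 ± 2.15 RPKM (SD, n = 3 each). DUSP6 at 27.7 ± 1.102 RPKM, SPRY2 at 25.1 ± 1.56 RPKM and DUSP5 at 22.5 ± 2.65 RPKM followed (SD, n = 3 each). The ranges of mean ± SD overlapped barely for DUSP6 and SPRY2, and more widely for SPRY2 and DUSP5. Genes with several transcripts, among them DUSP4, SPRY4 and ETV4, may stand too low in these orders if reads shared by transcripts were not counted.

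The table lists 16 RefSeq transcripts of the 10 genes, and 14 of them passed the filter in a fit over all transcripts. At an adjusted p under 0.05 in the fit of transcripts with edgeR, 6 of the 14 passed, against 29.3% of all transcripts tested. These were the main or sole transcripts of DUSP4, DUSP5, DUSP6, PHLDA1, EGR1 and ETV5. For DUSP4, NM_001394.6 held 99.0% of the counts and had a log2 fold change of 1.44 (SE 0.29). ETV4 was spread over 3 transcripts. NM_001079675.2 held 64.0% of its counts and had a log2 fold change of 0.30 (adjusted p 0.226), and NM_001986.2, with 30, 26 and 14 counts in pGIPZ-NC and 32, 24 and 57 in shUSP39, had one of 0.72 (adjusted p 0.232) with shUSP39 replicate 3 far above the other libraries. In SPRY2, NM_005842.3 held 82.1% of the counts, and its log2 fold change was 0.03 (SE 0.07), beside -0.24 (SE 0.17) in NM_001318536.1 and -0.14 (SE 0.17) in NM_001318537.1. The tested transcript of SPRY4, NM_001293289.1, held 81.9% of its counts and had a log2 fold change of 0.24 (SE 0.35). The proportions of the transcripts could be tested in ETV4 and SPRY2 with edgeR's diffSpliceDGE. The p-values were 0.264 and 0.273 before adjustment, so neither passed, against 3.81% of the 1628 genes with at least 2 tested transcripts.

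The rest of the pathway was then examined in 4 lists, to see whether the phosphatases and the upstream inhibitors stood alone. Of 26 listed genes of the ERK cascade (adaptors, RAS, RAF, MEK and ERK proteins with their scaffolds and the kinases they activate), 23 were tested. At an adjusted p under 0.05, 3 were higher and 4 lower, and 16 did not pass, with a median log2 fold change of 0.01. These shares are near those of all genes tested, 16.1% higher and 17.5% lower. NRAS, 1 of the RAS proteins, fell from 265 ± 13.9 to 208 ± 11.8 CPM (SD, n = 3 each), a log2 difference of -0.35 (SE 0.05, adjusted p 8.26e-07). RPS6KA3, a kinase that ERK activates, differed by -0.21 in log2 units (SE 0.04, adjusted p 0.000311), and KSR1, a scaffold that holds RAF, MEK and ERK together, by 0.36 (SE 0.10, adjusted p 0.00816). MAP2K1 (MEK1), chosen after its values were seen, passed as higher at 0.17 on the log2 scale (adjusted p 0.000513). HRAS, also chosen after its values were seen, was below 1 CPM in the mean of either group, and the 95% interval of its log2 fold change was wide, -0.29 to 1.82. All of these p-values are from edgeR's quasi-likelihood test.

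Of the other MAP kinase phosphatases, 6 of 7 were tested, and 5 passed as higher and 1 as lower, where 16.1% of all genes tested were higher and 17.5% lower. Their median log2 fold change was 0.61, against 0.01 over all genes tested, and DUSP10 was not tested with at most 2 counts in any library. DUSP8, which acts on the stress kinases JNK and p38, rose from 2.34 ± 0.779 to 7.71 ± 1.52 CPM (SD, n = 3 each), that is by 1.71 on the log2 scale (SE 0.22, edgeR adjusted p 6.59e-07). DUSP9, a cytoplasmic phosphatase that prefers ERK, rose from 15.7 ± 0.289 to 26.3 ± 1.77 CPM, and DUSP2, a nuclear phosphatase of ERK and p38, from 95.4 ± 5.5004 to 152 ± 10.3 CPM (SD, n = 3 each). The log2 fold changes of DUSP1 and DUSP7 were 0.54 (SE 0.06) and 0.43 (SE 0.05). DUSP16, which acts on JNK and p38, was the 1 that fell, at -0.21 on the log2 scale (SE 0.05, edgeR adjusted p 0.000723).

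Among the other Sprouty and SPRED genes, SPRY1 was higher, with means of 87.0 ± 4.43 and 106 ± 6.92 CPM for pGIPZ-NC and shUSP39 (SD, n = 3 each) and 0.29 between them on the log2 scale (SE 0.06, edgeR adjusted p 0.000258). SPRED2 had a log2 fold change of -0.03 (SE 0.08) and SPRED3, below 1 CPM, of -0.48 (SE 0.71), and neither passed. SPRY3 was not tested, with at most 10 counts in any library.

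Of 15 other genes that ERK is known to induce, 13 were tested, and 8 were higher and 5 did not pass at an adjusted p under 0.05, where 16.1% of all genes were higher. Their median log2 fold change was 0.29, and 2 were called as higher beyond 2-fold, as were 4.53% of all genes. IER3, an immediate-early gene linked to cell survival, rose from 88.8 ± 3.70 to 213 ± 4.19 CPM (SD, n = 3 each), a log2 difference of 1.26 (SE 0.05, adjusted p 1.03e-17). EGR4, a relative of EGR1, rose from 5.05 ± 0.375 to 10.9 ± 0.881 CPM (SD, n = 3 each), a log2 difference of 1.11 (SE 0.14, adjusted p 7.57e-07), in the direction opposite to EGR1. HBEGF, a ligand of the EGF receptor, rose by 0.60 in log2 units (SE 0.08, adjusted p 4.53e-07). ERRFI1, an inhibitor of the EGF receptor chosen here after its values were seen, rose from 1669 ± 37.1 to 2412 ± 65.7 CPM (SD, n = 3 each). FOS, another classical immediate-early gene and likewise chosen after its values were seen, had a log2 fold change of 0.05 (SE 0.09) and did not pass (adjusted p 0.7204), and EGR3 had 0.15 (SE 0.26, adjusted p 0.716). All of these p-values are from edgeR's quasi-likelihood test.

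**Figure D3:**
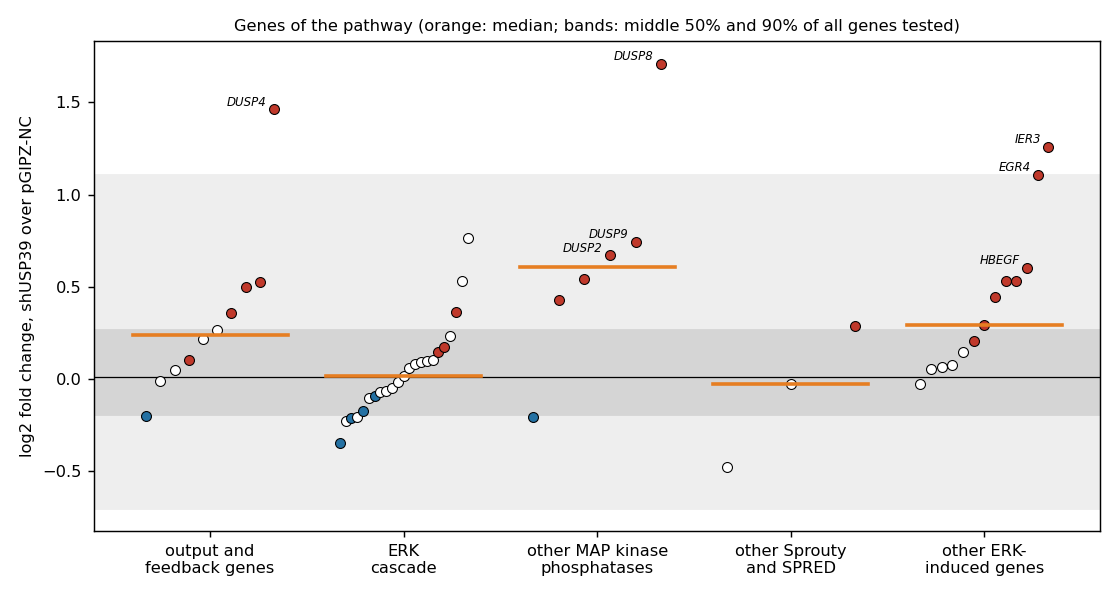
Log2 fold change, shUSP39 over pGIPZ-NC, of the 10 output and feedback genes and of 4 lists of other genes of the pathway. Each point is 1 gene, red higher and blue lower at an adjusted p under 0.05 and open if it did not pass, orange lines are medians, and the grey bands hold the middle 50% and 90% of all genes tested. DUSP4, DUSP8 and IER3 lie above the 90% band, EGR4 lies at its upper edge of 1.11, and the median of the ERK cascade (0.01) is close to that of all genes.

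**Figure D4:**
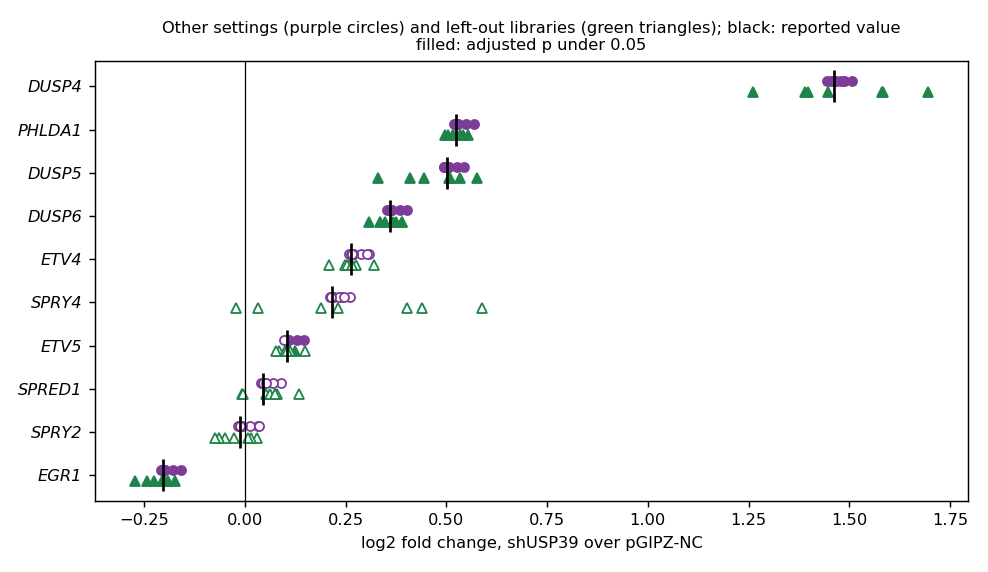
Log2 fold change of each of the 10 genes under other settings of the processing (purple circles) and with libraries left out (green triangles), with the reported value as a black line. Filled symbols have an adjusted p under 0.05. DUSP4, DUSP5, DUSP6, PHLDA1 and EGR1 are filled throughout, and SPRY2, SPRY4 and SPRED1 lie on both sides of 0.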

How the data were processed

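Total RNA was sequenced by the authors, and raw read counts were deposited in 1 table with a row for each RefSeq transcript. The submitters' processing notes name HISAT2, Cufflinks and hg19 without a role. The counter, annotation and strand setting are not given in the sources used here. The deposited group means, fold changes, p-values and q-values of the authors were not used.

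Counts of 21368 transcript rows were summed to 16571 gene symbols, after 46 date-like symbols were restored through their accessions and 1 was left. Differential expression was tested across all genes with edgeR 4.0.16 in R 4.3.3 (filterByExpr, TMM, robust quasi-likelihood, group as the only term) and Benjamini-Hochberg adjustment. A gene was called beyond 2-fold in either direction if its adjusted p was under 0.05. The SE was the log2 fold change divided by the square root of F, and 95% intervals used the fit's degrees of freedom. Transcript rows were fitted likewise, and their usage with diffSpliceDGE. The p-values measure the spread between these libraries. No other hairpin or other cell line was compared here. An effect of the selected line or an off-target effect of the hairpin therefore cannot be told apart from loss of USP39. No 2 libraries of a group agreed within counting noise (chi-square per degree of freedom at least 4.75). Alternatives used limma 3.58.1 and DESeq2 1.42.0. The fits were tested on simulated data.

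The 10 genes and the lists were chosen with earlier results of these data known. Named from each list were genes called and the 3 with the largest change among those past the adjusted p, and relatives of the 10 genes. Others are marked as chosen after their values were seen. Genes SHC1, RPS6KA2, EPHA4 and WT1 were not analysed here, and some other genes of the ERK cascade list are not reported here by name. Coordinates, exons and lengths came from GENCODE release 44 on GRCh37, and promoters from RefSeq on GRCh38.p14. The 2 builds were not mixed.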

Additional observations from a re-analysis of the deposited data

How the results depend on the processing

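Of the 10 genes, DUSP4, DUSP5, DUSP6, PHLDA1 and EGR1 kept their direction and their side of the threshold under all 16 alternatives tried, 1 of which kept a single shUSP39 library and took the spread from pGIPZ-NC alone. Their log2 fold changes lay between 1.26 and 1.70 for DUSP4, 0.33 and 0.58 for DUSP5, 0.31 and 0.40 for DUSP6, 0.497 and 0.57 for PHLDA1, and -0.27 and -0.16 for EGR1. ETV4 did not pass under any of them (lowest adjusted p 0.102). ETV5 did not pass in 7 of 16, which were 5 of the fits without 1 library, the fit without a filter (adjusted p 0.0761) and the fit that kept only shUSP39 replicate 1 of that group (0.0515). SPRY2 changed sign under upper-quartile scaling (0.032), with library size only (0.013) and with the highest transcript of each gene (0.035), and ranged from -0.063 to 0.031 across the fits without 1 library, positive without pGIPZ-NC replicate 3 or shUSP39 replicate 1 or 2. Across those fits SPRY4 ranged from -0.022 to 0.44, negative without shUSP39 replicate 1, and SPRED1 from -0.0063 to 0.079, negative without pGIPZ-NC replicate 3 or shUSP39 replicate 1. Neither passed. The called number of all genes was 728 as reported, 1226 with a 1.5-fold limit and 471 with at least 10 counts in every library, which follow from how these limits are built, and ran from 677 to 836 across the fits without 1 library. Of the other genes of the pathway, 22 passed the adjusted p, 16 when only shUSP39 replicate 1 was kept. The sample titles number the replicates and do not say whether same-numbered libraries were handled together. The deviations of same-numbered libraries from their group means correlated at 0.069, 0.0048 and 0.022, and a fit with a replicate block passed 6 of the 10 genes and 23 of the other genes of the pathway, called 745 genes in all, and changed no call of the 10 genes. Scaling by the upper quartile raised the share of higher genes among those that passed from 48.0% to 58.0%, and the median of all genes moved from 0.01 to 0.05. Depth limits SPRY4, DUSP4 and ETV4 most.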

Other observations

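Ratios of counts within a library do not depend on scaling, and 3 of them were formed after the values were seen. The ratio of PHLDA1 to EGR1 was 1.14, 1.12 and 1.09 in pGIPZ-NC, in the order of the replicate numbers, and 1.95, 1.68 and 1.93 in shUSP39. The summed counts of DUSP4, DUSP5 and DUSP6 over those of SPRY2, SPRY4 and SPRED1 were 0.619, 0.718 and 0.699 in pGIPZ-NC and 0.844, 0.889 and 0.947 in shUSP39. The ratio of DUSP6 to ETV5 was 0.284, 0.312 and 0.298 in pGIPZ-NC and 0.348, 0.3503 and 0.368 in shUSP39. The groups did not overlap in any of the 3, with shUSP39 above. For PHLDA1 to EGR1 this follows from the levels of the 2 genes, which differed in opposite directions without overlap. The summed ratio rests mostly on DUSP5, DUSP6, SPRY2 and SPRED1, and it leaves out SPRY1, which was higher. Ratios of other pairs of genes were not formed, so no share over all genes stands beside these. The ratios were not tested.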
